A study of Mus musculus with 2 samples.

Results

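The tropomyosin genes of the mouse are Tpm1, Tpm2, Tpm3 and Tpm4, taken here by symbol from the transcript tables and joined to the gene tables by gene identifier. They are 4 of 55536 annotated genes, and their 45 annotated transcripts are among 141864. They were measured in total RNA from the hearts of 2 female mice at postnatal day 10, 1 library each, called replicate 1 and replicate 2. Both animals are B6CASTF1/J, which by its name is the first generation of a cross of C57BL/6J with CAST/EiJ, and neither carries a treatment or an engineered allele in the labels. Each library was made from 300 ng of RNA with ERCC spike-ins, synthetic RNAs of known proportion. The labels number them as biological replicates and list separate tissue samples, but put both under a single donor record and name no litter, batch or date. That they are separate animals rests on those replicate numbers and sample records, and each SD measures only the spread between these 2 libraries. There is 1 group, so the comparisons are between the genes and splice forms within each heart, and between the 2 hearts.

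Tropomyosin is a coiled-coil dimer that lies end to end along actin filaments. In striated muscle it sits with the troponin complex and, when calcium binds troponin C, moves on the filament so that myosin can reach actin. The family gives many proteins by the choice of first exon (1a for long forms, 1b for short ones) and of the end exon (9a to 9d). Further choices are of 1 of a pair of second and of sixth exons (2a or 2b, 6a or 6b). Not every gene has each choice in the annotation used here, and Tpm4 has only 1 protein-coding transcript. In the known mammalian forms, exon 9a goes with striated muscle, where its protein end contacts troponin T, and exon 9d with smooth muscle and non-muscle cells. Tpm1 is the main gene of adult heart muscle, Tpm2 is known from skeletal and smooth muscle, and Tpm3 and Tpm4 give short cytoskeletal forms in many cells, Tpm3 also a slow skeletal muscle form.

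The members lie at 4 places of the mm10 genome and carry unequal numbers of annotated forms. Tpm1 (ENSMUSG00000032366.15) is at chr9:67022590-67049406 on the minus strand with 21 transcripts. Tpm2 (ENSMUSG00000028464.16) is at chr4:43514711-43523765 on the minus strand with 6. Tpm3 (ENSMUSG00000027940.18) is at chr3:90072649-90100902 on the plus strand with 16, and Tpm4 (ENSMUSG00000031799.9) at chr8:72134975-72153142 on the plus strand with 2. Of the 45 transcripts 28 are annotated as protein-coding, 9 as retained introns, 6 as processed transcripts and 2 as targets of nonsense-mediated decay.

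The alternative exons are shown first because every splice-form value below rests on telling them apart. Each is the coding part of an exon, 5′ to 3′ on the strand of the gene, read from the GENCODE M21 transcripts on mm10. Capitals mark the bases at which the exon differs from its partner when both are laid side by side from their first base without gaps, or has no partner base. The pair of second exons of Tpm1 shared 60 of 126 bases (47.6%), at chr9:67048124-67048249 for 2a and chr9:67047786-67047911 for 2b.
Tpm1 exon 2a: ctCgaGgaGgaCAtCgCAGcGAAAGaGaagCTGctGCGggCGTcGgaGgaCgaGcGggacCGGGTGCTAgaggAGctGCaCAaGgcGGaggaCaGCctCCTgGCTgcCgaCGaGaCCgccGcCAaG
Tpm1 exon 2b: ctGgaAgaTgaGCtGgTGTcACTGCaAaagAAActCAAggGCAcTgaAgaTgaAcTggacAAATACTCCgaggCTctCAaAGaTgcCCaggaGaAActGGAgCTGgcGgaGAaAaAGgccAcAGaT
The sixth exons of Tpm1, 6a at chr9:67032466-67032541 and 6b at chr9:67031951-67032026, shared 43 of 76 bases (56.6%).
Tpm1 exon 6a: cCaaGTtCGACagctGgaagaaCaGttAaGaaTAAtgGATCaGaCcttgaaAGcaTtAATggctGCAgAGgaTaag
Tpm1 exon 6b: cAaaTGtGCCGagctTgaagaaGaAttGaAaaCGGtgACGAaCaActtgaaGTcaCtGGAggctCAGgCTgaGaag
The end exons of Tpm1 differed most, with 34 of 79 compared bases shared (43.0%) between 9a at chr9:67029664-67029742 and 9d at chr9:67023362-67023441.
Tpm1 exon 9a: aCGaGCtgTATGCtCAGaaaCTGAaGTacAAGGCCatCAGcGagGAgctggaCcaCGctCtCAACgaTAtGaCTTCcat
Tpm1 exon 9d: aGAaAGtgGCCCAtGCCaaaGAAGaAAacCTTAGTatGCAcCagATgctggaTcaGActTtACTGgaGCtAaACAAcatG
In Tpm2 the end exons 9a at chr4:43515924-43516003 and 9d at chr4:43514782-43514861 shared 33 of 80 bases (41.2%), and the sixth exons 6a and 6b shared 41 of 76 (53.9%).
Tpm2 exon 9a: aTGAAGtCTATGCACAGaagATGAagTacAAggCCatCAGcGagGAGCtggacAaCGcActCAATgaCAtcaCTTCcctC
Tpm2 exon 9d: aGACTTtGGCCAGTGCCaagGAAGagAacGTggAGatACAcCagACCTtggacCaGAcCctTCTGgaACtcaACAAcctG

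Exons that all the main forms keep were more alike between genes than alternative partners were within a gene. Of these, exon 5 was 63.4% to 73.2% identical between genes, which overlaps the 58.75% to 71.25% of end exon 9d. Over exons 3, 4, 5, 7 and 8, 456 bases in all, identity between pairs of genes ran from 77.0% (Tpm3 with Tpm4) to 81.1% (Tpm1 with Tpm3). The sixth exon of Tpm4, which has no annotated partner, was closer to 6b of the other genes (71.1% to 73.7%) than to their 6a (43.4% to 55.3%). Between genes, exact stretches of 31 bases were almost never shared: 9 between Tpm1 and Tpm2, 2 between Tpm3 and Tpm4 and 0 for the other pairs. Tpm1-205, Tpm1-203, Tpm1-207, Tpm1-215 and Tpm1-206 had 0 stretches of 31 bases that no other annotated transcript holds, since they differ only in how common exons are combined. Tpm1-216 had 131, all from the 131 bases at its 5′ end that no other Tpm1 transcript covers.

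The label of the tissue was checked against markers. All 6 heart muscle markers were present, among them Myh6 (alpha myosin heavy chain) at 8417 and 9608 TPM in replicates 1 and 2. TPM, the unit of all levels here, is a relative abundance corrected for transcript length. Marker levels are from the first set of deposited tables unless stated. None of the 9 skeletal muscle markers reached 1 TPM in both libraries, and their summed level was 2.89 and 3.47 TPM. By the second set Tnni2, among these 9, had 1.39 and 2.56 TPM. All 8 smooth muscle and mural markers reached 1 TPM in both libraries, with sums of 564 and 587 TPM. The sums rested mainly on Acta2 (211 and 243 TPM) and Rgs5 (177 and 168 TPM). Myh11 had 9.40 and 10.9 TPM, Cnn1 3.30 and 4.00 TPM and Actg2 2.00 and 2.11 TPM. All 6 fibroblast markers (sums of 1556 and 1595 TPM) and all 4 endothelial markers (331 and 332 TPM) also reached 1 TPM in both libraries. In such bulk tissue fewer cells of a type and less RNA per cell cannot be told apart. Red cell markers summed to 3482 TPM in replicate 1 and 8496 TPM in replicate 2. Counts over all genes came to about 40184481 and 39620543.

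Tpm1 made up nearly all tropomyosin RNA. By the first set of deposited tables, whose columns are those RSEM writes, its level was 3807 and 4242 TPM in replicates 1 and 2, from 132112 and 144278 expected counts. Tpm4 followed at 97.1 and 95.8 TPM, Tpm3 at 41.5 and 40.8 TPM, and Tpm2 at 23.1 and 24.1 TPM. The ranges of the 4 genes did not overlap. By the second set, with the columns kallisto writes, Tpm1 had 4774 and 5269 TPM, Tpm4 117 and 113 TPM, Tpm3 54.1 and 48.2 TPM and Tpm2 30.6 and 31.5 TPM, also without overlap. Tpm1 ranked 6th in mean TPM of 22015 protein-coding nuclear genes, Tpm4 was 652nd, Tpm3 1677th and Tpm2 3033rd. The 4 genes together held 0.352% of all counts in replicate 1 and 0.387% in replicate 2.

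**Figure D1:**
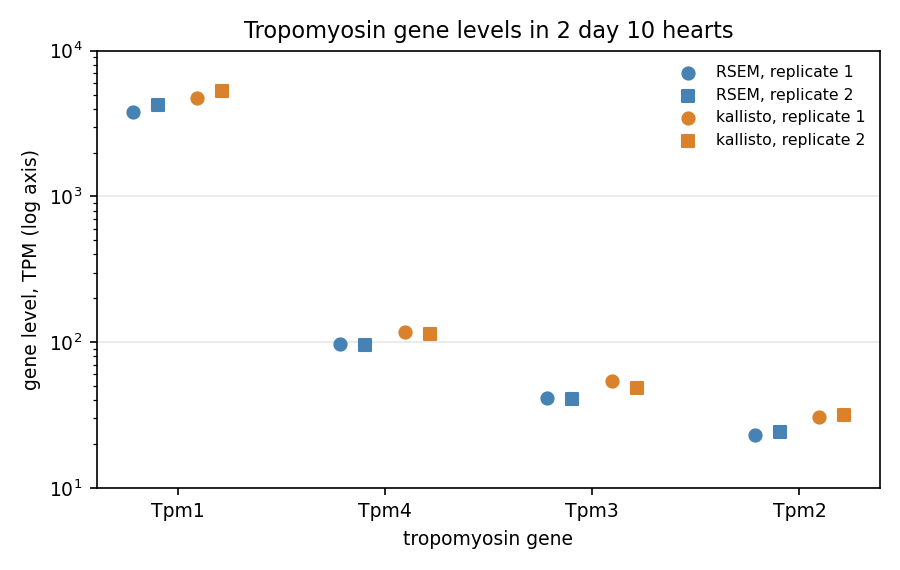
Level of each tropomyosin gene in TPM on a log axis, with 1 point for each of the 2 libraries by each set of tables (RSEM and kallisto). Tpm1, at 3807 to 5269 TPM, lies far above Tpm4, Tpm3 and Tpm2, whose order is the same in both libraries by both sets.

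Each step in the order was larger than the spread between the hearts. Steps are log2 ratios of TPM + 0.1 within a library, and a step was read as apart where its sign was the same in each heart and its mean passed 3 SD. With 2 libraries an exact permutation test cannot go below p = 0.5, so no p is given. Tpm1 over Tpm4 was 5.29 and 5.47 in replicates 1 and 2, a mean of 5.38 ± 0.12 (SD, n = 2) or 41.6-fold. Tpm4 over Tpm3 was 1.23 in each, or 2.34-fold, and Tpm3 over Tpm2 was 0.84 and 0.76, a mean of 0.80 ± 0.06 (SD, n = 2) or 1.74-fold. The kallisto tables gave the same order at 43.6-fold, 2.25-fold and 1.64-fold, all apart. As shares of summed tropomyosin TPM, Tpm1 had 96.1% ± 0.30, Tpm4 2.31% ± 0.19, Tpm3 0.986% ± 0.083 and Tpm2 0.565% ± 0.024 (SD, n = 2).

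Between the 2 hearts no tropomyosin gene passed 1.5-fold on the log2(TPM + 0.1) scale. Of all 12838 genes with at least 1 TPM in both libraries, 3.05% passed it, so 0 of 4 members is no result about the tropomyosins. By RSEM TPM Tpm1 had a log2 ratio of replicate 1 over replicate 2 of -0.16, or 1.11-fold, and by kallisto one of -0.14. Its counting error alone is 0.0055, and 62.0% of detected genes had a smaller ratio in size. In RSEM TPM the ratio was -0.06 for Tpm2 with a counting error of 0.069, and 0.02 for Tpm4 with 0.026, each smaller than 1 counting error. The Tpm4 ratio was also smaller in TMM-scaled counts (0.008) and in counts over DESeq2 size factors (0.02). It was larger than that error in kallisto TPM (0.04) and in TPM without mitochondrial and small noncoding genes (0.06). For Tpm3 the ratio depended on the scale, with a counting error of 0.043: it was 0.02 in RSEM TPM, 0.12 in TMM-scaled counts, 0.13 in counts over DESeq2 size factors and 0.17 in kallisto TPM. Tpm3 was higher in replicate 1 on each scale, and by kallisto its ratio was larger in size than that of Tpm1. The heart muscle markers had a median log2 ratio of -0.11, in the same direction as Tpm1, and the 4 red cell markers with at least 1 TPM in both libraries all passed 1.5-fold, lower in replicate 1. Their part in the Tpm1 ratio was not tested.

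The genes nearest to each member in level were found by distance over both libraries on the log2(TPM + 0.1) scale, among protein-coding nuclear genes. Tpm1 lay between abundant heart muscle genes: Mb (myoglobin) at 4180 and 4787 TPM, Atp2a2 (the calcium pump of the sarcoplasmic reticulum) at 3206 and 3494 TPM and Myl3 (a ventricular myosin light chain) at 4769 and 4987 TPM, in replicates 1 and 2. Tpm4 lay nearest to Prdx6 (a peroxiredoxin), Pxdn (peroxidasin, a basement membrane enzyme) and Sqstm1 (an autophagy receptor). Tpm3 lay nearest to Ppp6r3 (a regulatory subunit of protein phosphatase 6), Ipo5 (a nuclear import receptor) and Pdcd5, and Tpm2 to Glyr1, Trappc2l (a vesicle tethering subunit) and Dohh (an enzyme of hypusine synthesis). Distances were 0.22 to 0.40 for Tpm1 and at most 0.027 for the others, where many genes crowd at like levels.

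Tpm1 RNA was mainly the form with the exons of striated muscle. Tpm1-205 joins 1a, 2b, 6b, 9a and 9b around the common exons and codes in 852 bases. It had 3658 and 4092 TPM in replicates 1 and 2 by RSEM, and 3384 and 3719 TPM by kallisto. Both hearts and both tables put it above every other tropomyosin transcript. Its share of Tpm1 depended on the table: the deposited isoform percent of RSEM was 96.1 and 96.5 in replicates 1 and 2, while by kallisto it was 70.9% and 70.6%. The gap between the tables was far wider than that between the hearts.

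The rest of Tpm1 was placed on other transcripts by each table. Tpm1-216 has the same exons as Tpm1-205 up to exon 8 but ends in 9d, and its annotated start lies 193 bases further upstream. It had 26.0 and 26.3 TPM by RSEM in replicates 1 and 2, against 775 and 884 TPM by kallisto. The interval deposited with the RSEM values, whose level is not stated, ran to 27.7 and 27.8 TPM. Such an interval need not hold the TPM it accompanies. That of Tpm1-205 ended at 3600 and 4025 TPM in replicates 1 and 2, below its own RSEM TPM of 3658 and 4092. Tpm1-203 has 6a in place of 6b and the same 9a and 9b end as Tpm1-205. RSEM listed it at 0 in both libraries, with intervals up to 5.24 and 3.56 TPM, and kallisto at 491 and 529 TPM. Tpm1-216 and Tpm1-203 together hold most of the Tpm1 TPM that kallisto placed outside Tpm1-205. Tpm1 as a whole was also higher by kallisto, at 4774 and 5269 TPM against 3807 and 4242 TPM by RSEM. The tables hold no reads, and which placement is right was not tested.

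Smaller Tpm1 forms also changed place. Tpm1-207, which goes from exon 8 to 9b without 9a, had 14.4 and 20.5 TPM by RSEM and 71.3 and 85.1 TPM by kallisto. Tpm1-219, a transcript without an annotated coding frame that runs from 1a to the end of an extended exon 4, had 49.7 and 49.9 TPM by RSEM and 9.26 and 7.94 TPM by kallisto. Tpm1-215 carries 2a with 9d, the exon set of the known smooth muscle form. It had 13.1 and 13.5 TPM by RSEM and 4.30 and 3.95 TPM by kallisto, 0.35% of Tpm1 or less in each library by each table. Tpm1-206, a short form from 1b that ends in 9b, had 11.2 and 10.4 TPM by RSEM and 4.81 and 11.0 TPM by kallisto. Tpm1-221 has 1138 stretches of 31 bases of its own, the most of any Tpm1 transcript, and it had 8.54 and 6.96 TPM by RSEM and 11.4 and 8.75 TPM by kallisto.

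The other 13 Tpm1 transcripts were low, and 6 of them were at 0 in both libraries by both tables. Tpm1-201 has the coding exons of Tpm1-205 but ends within its own extended 9a, with 816 stretches of 31 bases of its own. It had 7.89 and 6.25 TPM by RSEM in replicates 1 and 2, and 10.4 and 7.89 TPM by kallisto. Tpm1-204, a short form from 1b with 6a and 9a, had 7.95 and 7.34 TPM by RSEM and was listed at 0 by kallisto in both libraries. Tpm1-209, from 1b to 9c, had 1.73 and 1.87 TPM by RSEM and 2.77 and 2.65 TPM by kallisto, and has 965 stretches of its own. Transcripts from 1b together made up 0.512% ± 0.071 of Tpm1 by RSEM and 0.209% ± 0.071 by kallisto (SD, n = 2), so short Tpm1 forms were under 1% of the gene by each. Tpm1-201, Tpm1-204 and Tpm1-209 fall below the 10 TPM rule and were picked with their values known.

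**Figure D2:**
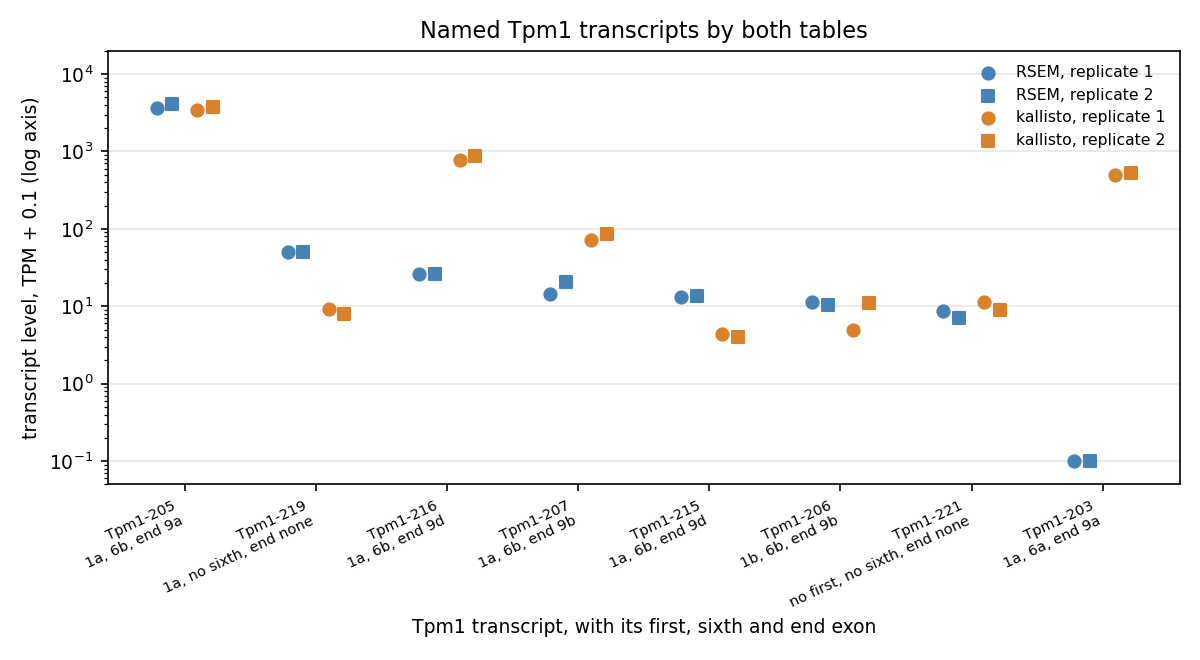
Level of the 8 Tpm1 transcripts with a mean of at least 10 TPM by either table, as TPM + 0.1 on a log axis, for each library by RSEM and by kallisto. Tpm1-205 is highest by both, Tpm1-216 and Tpm1-203 lie at 491 to 884 TPM by kallisto only, and the widest gap between libraries is that of Tpm1-206 by kallisto (4.81 and 11.0 TPM in replicates 1 and 2).

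Summed by exon, some choices were the same by both tables and others were not. First exon 1a was in 99.3% ± 0.11 of Tpm1 TPM by RSEM and 99.6% ± 0.020 by kallisto (SD, n = 2), and second exon 2b in 99.0% ± 0.15 and 99.5% ± 0.0088. Exon 2b thus stood far above 2a, the exon of the smooth muscle form, by either table. Sixth exon 6b was in 98.2% ± 0.18 by RSEM and 89.3% ± 0.28 by kallisto, with 6a in 0.220% and 10.2%. The end was the least settled: 9a had 96.6% ± 0.20 by RSEM and 81.1% ± 0.43 by kallisto, and 9d had 1.02% ± 0.089 and 16.6% ± 0.37. In both tables, then, 1a, 2b, 6b and 9a led in Tpm1, but the 9d and 6a shares of over 10% came from kallisto alone.

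Tpm2 RNA, by contrast, mostly carried the exons of the smooth and non-muscle form. Tpm2-203, with 1a, 2b, 6a and 9d, had 18.1 and 20.5 TPM by RSEM in replicates 1 and 2, and 24.8 and 27.2 TPM by kallisto. Tpm2-202, with 6b and 9a, the exon set of the striated beta form, had 4.05 and 3.24 TPM by RSEM and 5.15 and 3.96 TPM by kallisto. The 9d end made up 83.7% ± 4.1 of Tpm2 by RSEM and 85.3% ± 3.0 by kallisto (SD, n = 2), and 9a 15.5% ± 2.9 and 14.7% ± 3.0. Here both tables gave 9d over 9a, the reverse of Tpm1. Tpm2-203 and Tpm2-202 have 131 and 55 stretches of 31 bases of their own. Exon 9d is also annotated in Tpm2-205 and 9a in Tpm2-201, so these stretches do not by themselves tell the ends apart. The gene as a whole rested on only 885 and 886 expected counts.

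Tpm3 RNA was mostly a short form. Tpm3-201, with 1b, 6a and 9d, had 29.3 and 25.2 TPM by RSEM in replicates 1 and 2, and 38.1 and 34.5 TPM by kallisto. First exon 1b was in 88.2% ± 2.4 of Tpm3 by RSEM and 84.5% ± 5.3 by kallisto (SD, n = 2). Tpm3-205, with 1a, 2b, 6b and 9a as in the slow skeletal muscle form, had 1.23 and 0.52 TPM by RSEM and 3.07 and 2.46 TPM by kallisto. Tpm3-202, a short form with 6b and 9a, had 3.73 and 4.65 TPM by RSEM and 3.35 and 3.65 TPM by kallisto. Both stood well below Tpm3-201 in every library. Annotated retained introns took 16.0% and 22.3% of Tpm3 by RSEM and 5.80% and 10.5% by kallisto. That was the largest such share of the 4 genes by each table, but it largely follows from the annotation. Tpm3 has 8 annotated retained introns, Tpm1 has 1, and Tpm2 and Tpm4 have 0.

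Of the 2 annotated Tpm4 transcripts only 1 held counts, and neither is annotated with 1a or with an end exon other than 9d. Tpm4-201, with 1b and 9d, had 97.1 and 95.8 TPM by RSEM in replicates 1 and 2, and 117 and 113 TPM by kallisto, and Tpm4-202 was listed at 0 in both libraries by both tables. With 1580 stretches of 31 bases of its own in 2128 bases, Tpm4-201 left the tables little to divide. Tpm4-201 was thus the second most abundant tropomyosin transcript by RSEM, and the fourth by kallisto, after Tpm1-216 and Tpm1-203.

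**Figure D3:**
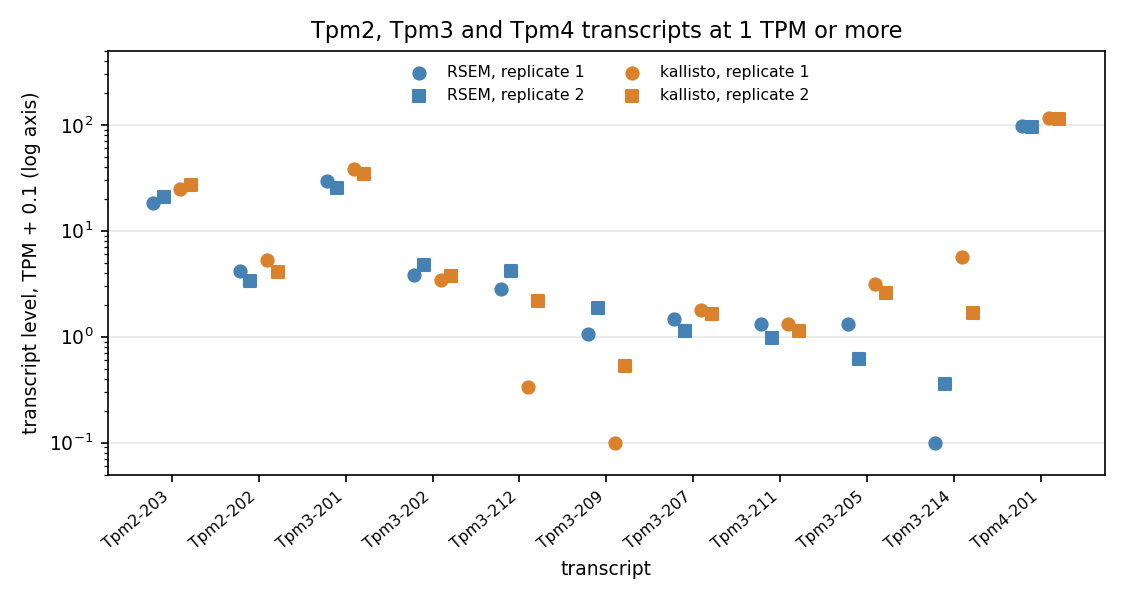
Transcripts of Tpm2, Tpm3 and Tpm4 with at least 1 TPM in at least 1 library by either table, as TPM + 0.1 on a log axis, for each library by RSEM and by kallisto. Tpm4-201, Tpm3-201 and Tpm2-203 lead their genes by both tables, while Tpm3-214, Tpm3-212 and Tpm3-209 differ between tables.

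**Figure D4:**
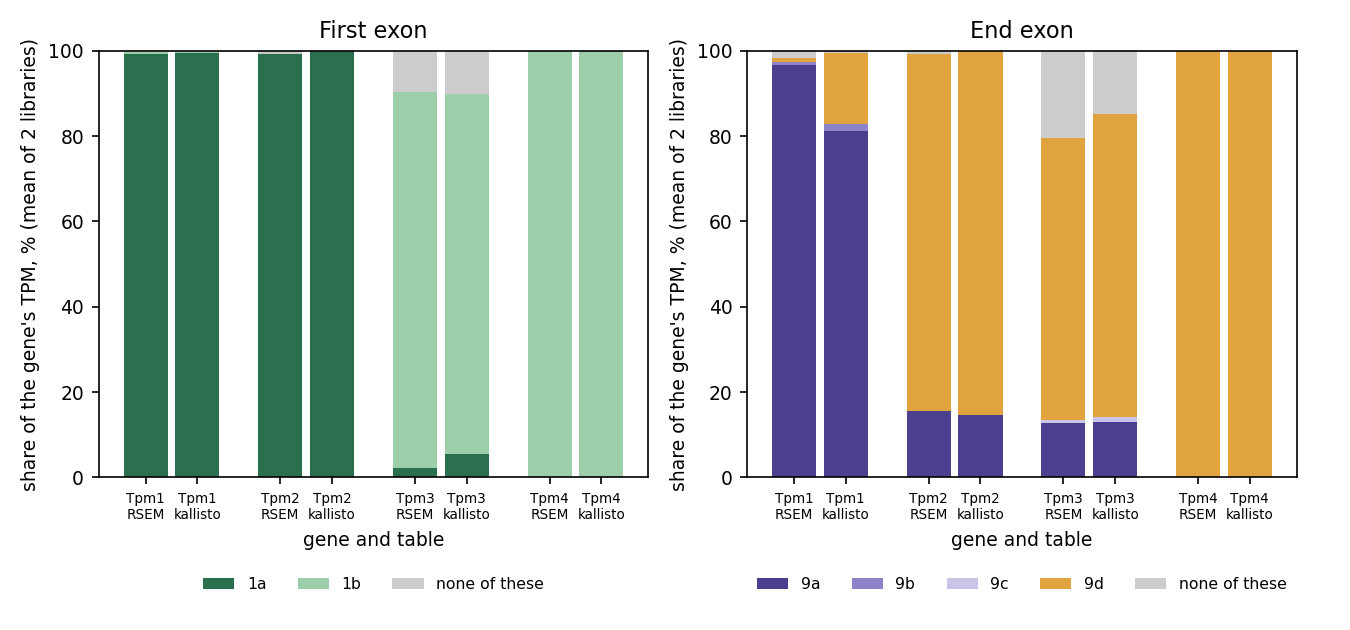
Share of each gene's TPM by first exon (left) and end exon (right), by RSEM and by kallisto, as the mean of the 2 libraries in percent. First exon 1a makes up over 99% of Tpm1 and Tpm2, and 1b all of Tpm4 and 88.2% of Tpm3 by RSEM (84.5% by kallisto), while the 9a end is the main one in Tpm1 alone, at 96.6% by RSEM and 81.1% by kallisto. No Tpm2 transcript is annotated with 1b and no Tpm4 transcript with 1a or 9a, so those shares follow from the annotation.

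Over the 4 genes together, the 9a end made up 93.1% ± 0.46 of tropomyosin TPM by RSEM and 78.2% ± 0.16 by kallisto (SD, n = 2). First exon 1a made up 96.0% ± 0.38 and 96.5% ± 0.30, and protein-coding transcripts 98.2% and 99.4%. Of the 45 transcripts, 12 were at 0 in both libraries by both tables, and the 34 not named by the 10 TPM rule had at most 7.95 TPM by RSEM and 10.4 TPM by kallisto in any library. Between the hearts, 18 transcripts had at least 1 TPM in both libraries by RSEM and 0 passed 1.5-fold, where 12.4% of all 24204 such transcripts did. By kallisto 2 of 20 passed, where 15.5% of 27432 did. Those were Tpm1-206, lower in replicate 1 at 4.81 against 11.0 TPM in replicate 2, and Tpm3-214, higher in replicate 1 at 5.56 against 1.57 TPM in replicate 2. By RSEM Tpm3-214 had 0 and 0.26 TPM.

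Other entries of the annotation resemble the members. Tpm3-rs7, an intronless copy on chromosome 14 annotated as protein-coding, shares 78.6% of its 31-base stretches with Tpm3 or Tpm4. It was given 610 and 663 expected counts in replicates 1 and 2, or 9.51 and 10.6 TPM, and how reads were divided between it and Tpm3 is uncertain. The pseudogene Gm7809 shares 48.7% and was given 27.8 and 48.9 counts. The other 5 of 7 entries that share at least 20 stretches held no count. The antisense Gm16091, which overlaps Tpm4, had 0 and 1 count, and Tpm3-rs2 and the antisense Gm26586 had 0.

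Tpm1 was set beside the proteins it binds on the thin filament. Its TPM was below that of cardiac and skeletal actin together (Actc1 and Acta1), which had 6825 and 7255 TPM in replicates 1 and 2, at 0.571 of it by RSEM and 0.557 by kallisto. Against troponin T, its partner at the overlap of 2 tropomyosins, Tpm1 was 1.29-fold by RSEM and 0.996-fold by kallisto, and against troponin I, the inhibitory subunit, 1.36-fold and 1.03-fold. These 2 steps were apart by RSEM and not by kallisto. Against troponin C, the calcium sensor, it was 1.75-fold and 2.10-fold, and against the 4 tropomodulins, which cap the pointed end of the filament and bind tropomyosin there, 23.7-fold and 25.3-fold, apart by both tables. Per TPM, Tpm1 thus stood below actin and above troponin C and the tropomodulins in both hearts.

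A list of 25 genes of the thin filament and its partners was read, with Mybpc3, a myosin-binding protein, among them. In both libraries 20 had at least 1 TPM. Their median log2 ratio of replicate 1 over replicate 2 was -0.07, beside 0.01 over all detected genes. Of these, 0 passed 1.5-fold higher in replicate 1 and 1 lower, a share close to the 3.05% of all detected genes in either direction. That was Acta1, skeletal muscle actin, with 91.3 TPM in replicate 1 and 146 TPM in replicate 2. Tnni1, the slow skeletal troponin I of the immature heart, had 320 and 215 TPM in replicates 1 and 2 by RSEM, a log2 ratio of 0.57 that did not pass, and 675 and 438 TPM by kallisto, which did. By RSEM the fast skeletal troponins Tnnt3 and Tnnc2 and the skeletal muscle ruler Neb were under 1 TPM in both libraries, and the fast Tnni2 had 0.75 and 1.59 TPM in replicates 1 and 2, with 1.39 and 2.56 TPM by kallisto. The heart relative of Neb, Nebl (nebulette), had 184 and 203 TPM. Lmod2, the main leiomodin of heart, which lengthens thin filaments, had 112 and 138 TPM.

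**Figure D5:**
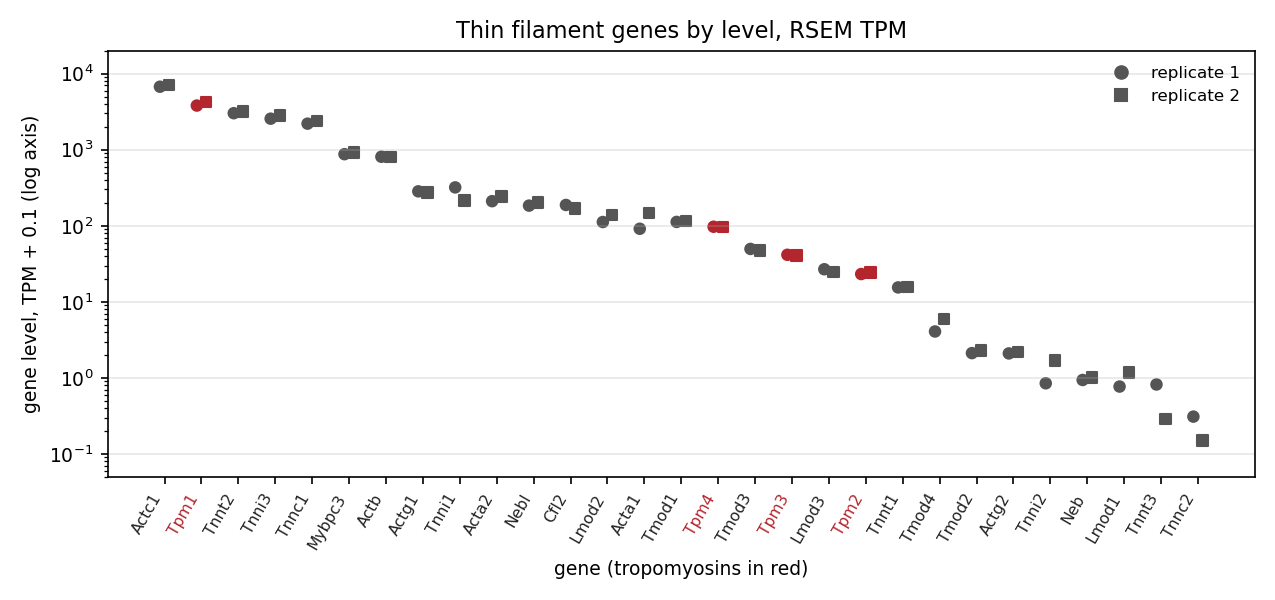
Level of the 4 tropomyosin genes (red) and of 25 genes of the thin filament and its partners in both libraries by RSEM. Values are TPM + 0.1 on a log axis, in order of mean level, and Mybpc3 codes for a myosin-binding protein. Tpm1 is second only to Actc1, and Tpm4, Tpm3 and Tpm2 lie in the range of 23.1 to 97.1 TPM, near the tropomodulins Tmod1 and Tmod3.

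Factors known from other work to act on the exon choice of tropomyosins or other muscle genes were mostly present. Of 19, 17 had at least 1 TPM in both libraries, with a median log2 ratio of replicate 1 over replicate 2 of 0.11, beside 0.01 over all detected genes. Of the 17, 0 passed 1.5-fold, which is no result about these factors, since only 3.05% of all detected genes did. Ptbp1, the polypyrimidine tract binding protein that represses many muscle exons, had 58.4 and 48.2 TPM in replicates 1 and 2, and its relative Ptbp2 15.9 and 13.5 TPM. The muscle splicing factors Rbm20 and Rbm24 had 119 and 107 TPM and 90.7 and 90.8 TPM. Mbnl1 and Mbnl2, which promote the splicing patterns of mature muscle, had 74.8 and 69.1 TPM and 90.0 and 95.5 TPM, and Qk (quaking) 222 and 200 TPM. The epithelial factors Esrp1 and Esrp2 were under 1 TPM in both hearts. With 1 group of hearts, no level of a factor can be related to an exon share here.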

How the data were processed

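Total RNA of 2 hearts was measured, 1 library each. Per the text deposited with the tables, they were made on mm10 with annotation M21, one set from alignments to the transcriptome and the other from reads and an index. The authors deposited expected counts and TPM per gene and transcript, with the percent of a gene's TPM in each transcript, in the first set, and estimated counts and TPM per transcript in the second. The column headers are those of RSEM and kallisto, and these names are used here as shorthand. Tools, versions and read length: not given in the sources used here. Effective lengths were 99 bases below transcript lengths in the first set and 333 and 329 bases below in the second. The part of this in the gaps between sets was not tested. Reads of the 2 parental genomes were counted together on a C57BL/6J reference, and a share of CAST/EiJ reads may fit less well.

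All 55536 annotated genes and 141864 transcripts were used, and 26248 entries with numeric identifiers only, holding 3.84 and 2.92 counts, were left out. Exons were named by the tropomyosin convention from their splice sites in the annotation, a first exon by its donor, a last by its acceptor. A form with 9a counts as a 9a end also where 9b or 9d follows. Transcripts were named at a mean of at least 10 TPM by either table. Levels were compared on the log2(TPM + 0.1) scale among features with at least 1 TPM in both libraries. A difference between libraries counted as passing at 1.5-fold. With 1 group, no count model was fitted and no p-value is given. Counting errors cover sampling of reads only. Library totals of 40184481 and 39620543 counts put only 885 and 886 on Tpm2, the fewest of the 4 genes. Values are means ± SD over 2 libraries, which the labels number as biological replicates under a single donor record. The fold rule was checked on simulated counts that vary by read sampling only, which leaves out any difference between hearts. The spread rule was checked only on a few set values. TMM factors came from edgeR 4.0.16 and size factors from DESeq2 1.42.0, on rounded expected counts, in R 4.3.3, and the rest was computed in Python 3.11.15 with pandas 2.3.3 and numpy 2.4.6. The members and lists were chosen with earlier results of these data known. Deposited intervals are given as the authors' bounds.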

Additional observations from a re-analysis of the deposited data

How the results depend on the processing

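The order of the 4 genes and the absence of any 1.5-fold difference of a gene between the hearts held under every alternative tried for them, and leaving out either replicate gives the value of the other, which with 2 libraries says nothing more about stability. In expected counts without length, the share of tropomyosin was 93.7% for Tpm1, 0.601% for Tpm2, 1.57% for Tpm3 and 4.12% for Tpm4, and the leading form had 72.0% of Tpm2 and 78.2% of Tpm3. By kallisto TPM, Tpm2 had 0.596% of tropomyosin, Tpm1-205 70.7% of Tpm1, exons 1a, 2b, 6b, 9a and 9d had 99.6%, 99.5%, 89.3%, 81.1% and 16.6% of Tpm1, and 1b had 84.5% of Tpm3. With protein-coding transcripts only, Tpm3 had 0.810% of tropomyosin, Tpm1-205 97.9% of Tpm1, exons 1a, 2b, 6b and 9a had 99.5%, 99.1%, 99.8% and 98.2% of Tpm1, 1b had 95.8% of Tpm3, and Tpm3-201, its 9d form, 82.3%. Dropping noncoding forms can only raise the share of a coding transcript within its own gene. The share of a gene or an exon can also fall, as that of Tpm3 in tropomyosin did from 0.986%. The cause of the gaps between tables was not tested. Among all genes, 4548 passed 1.5-fold without the 1 TPM filter, 88 passed 2-fold and 230 passed at a pseudocount of 1, against 392. Among transcripts, 31948 passed without the filter, against 3007. Chosen after the data were seen, Tpm1 over troponin T by kallisto was -0.0058 and over troponin I 0.046 on the log2 scale, and the log2 ratio of replicate 1 over replicate 2 changed sign for Tpm1-219 (0.22), Tpm1-215 (0.12) and Tpm1-206 (-1.18). No paired analysis was possible because both libraries are of 1 group. Counts were fewest for Tpm2.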
